A study of Mus musculus with 6 samples.

Results

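Transcript levels of 9 genes of B cell receptor signalling (Cd79a, Cd79b, Cr2, Cd22, Syk, Lyn, Btk, Blnk and Ptpn6) were followed across germinal centre B cells of mouse spleen. The genes were taken by name from a list chosen with earlier results of these data known. All 9 were found in each of the 3 deposited count tables, which have 14548 gene symbols in common. The cells came from adult mice given NP-haptenated antigen in alum, and were profiled in 6 droplet libraries that read the 5′ ends of transcripts. Day7 comprised 2 libraries of wild-type B220+ CD38- GL7hi cells, and Day14 comprised 2 libraries of wild-type B220+ CD95hi GL7hi IgD- cells. The chimaeras were irradiated hosts rebuilt with wild-type bone marrow, sorted at day 14 with the Day14 gate, with 1 library per host type. Control hosts were Il4ra+/+ and KO hosts were Ccl19Cre/+ Il4raf/f, so that the allele was deleted in host cells that express Ccl19, a chemokine of lymphoid stroma, and not in the sequenced donor B cells. The labels give neither the number of mice per library nor whether the numbered libraries came from separate animals. The p-values therefore measure only how levels, or differences within a library, vary from library to library.

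The B cell receptor is a membrane immunoglobulin held by a pair of signalling chains, CD79A and CD79B. When antigen binds, the Src-family kinase LYN phosphorylates their tails and SYK docks there. SYK phosphorylates the adaptor BLNK, which brings BTK to phospholipase C and so links the receptor to calcium and NF-kB signalling. CR2, the complement receptor CD21, lowers the threshold when antigen carries complement. CD22, a sialic acid-binding lectin, recruits the phosphatase SHP-1, encoded by Ptpn6, and restrains the signal. In germinal centres, B cells alternate between a dark zone, where they divide and mutate their antibody genes, and a light zone, where they meet antigen on follicular dendritic cells and compete for T cell help. Antibody-secreting plasma cells and memory B cells leave this reaction.

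The 9 genes lie on 8 chromosomes of the mm10 genome (GENCODE M21). Cd79a (chr7:24897381-24902197, plus strand) and Cd22 (chr7:30865402-30880342, minus strand) share chromosome 7. The others are Cd79b (chr11:106311341-106314762), Cr2 (chr1:195136811-195176716), Syk (chr13:52583173-52648792), Lyn (chr4:3678115-3813122), Btk (chrX:134542336-134583570), Blnk (chr19:40928927-40994535) and Ptpn6 (chr6:124720707-124738714). No protein-coding gene overlaps any of them. Non-coding genes overlap Cd22, Lyn, Btk and Ptpn6, and reads of these could not be separated here.

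Promoter sequence was at hand for 7 of the 9 genes (RefSeq, GRCm38.p6, the build called mm10). The stretches of the 250 bases before the start that lie outside annotated exons are shown for the signalling chain Cd79a and for Cr2 and Cd22, the 2 genes with the largest differences between days. They read 5′ to 3′ on the gene's own strand, from chr7:24897247-24897380 (plus strand), chr1:195176720-195176969 (minus strand) and chr7:30879029-30879176 (minus strand). Capitals mark CAGGTG, an E2A motif, on either strand (CACCTG on the other), and TCCC and GGGA with 2 bases of any kind between, an EBF1 motif that is its own reverse complement.
Cd79a: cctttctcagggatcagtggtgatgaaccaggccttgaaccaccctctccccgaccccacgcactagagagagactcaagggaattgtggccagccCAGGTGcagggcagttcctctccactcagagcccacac
Cr2: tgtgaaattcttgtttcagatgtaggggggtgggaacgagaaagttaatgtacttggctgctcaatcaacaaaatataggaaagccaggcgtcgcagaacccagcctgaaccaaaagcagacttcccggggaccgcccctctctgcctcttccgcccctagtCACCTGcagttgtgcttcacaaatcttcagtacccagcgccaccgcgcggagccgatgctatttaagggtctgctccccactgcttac
Cd22: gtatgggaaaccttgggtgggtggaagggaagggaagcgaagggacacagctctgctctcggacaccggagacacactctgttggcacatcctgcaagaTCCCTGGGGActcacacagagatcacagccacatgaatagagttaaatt

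Over all 250 bases, an exact match to this EBF1 pattern occurred in Cd22, from -49 to -40, and in none of the other 6 genes. Of 32851 RefSeq promoters, 0.779% held it. CAGGTG occurred in Cd79a, Cr2, Cd22, Ptpn6, Syk and Blnk, against 17.2% of all promoters. Blnk also held the octamer ATGCAAAT (1.6% of promoters), read on the opposite strand. The PU.1 motif GAGGAAGT (2.44% of promoters) and an NF-kB motif, GGGA and TTCC with 2 bases of any kind between (1.21%), were in none of these windows, and Btk held no motif of the 5. These are matches of letters and do not show binding. Only these exact patterns were searched, so a window without a match may still hold a site that departs from them. All 250 bases of the Blnk window lie in annotated exons. The windows of Blnk, Cd22, Btk and Syk lie inside the gene spans given above, since the RefSeq starts used lie downstream of those gene ends.

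Levels were expressed as CPM, UMIs of a gene per 1000000 UMIs of all non-immunoglobulin genes in the same cells, where a UMI marks 1 captured transcript. The libraries held 1012 and 2530 cells at Day7, 9109 and 10648 at Day14, 8038 in the control and 7314 in the KO chimaera. Median UMIs per cell were 17278 and 18234 at Day7, 3399 and 3179 at Day14, 6676 and 7186 in the control and KO chimaeras. All 5 defining B cell genes and all 7 defining germinal centre B cell genes were above 5 CPM in each library. The 10 follicular dendritic or stromal markers, of which the chimaera table lists 7, summed to between 1.16 and 3.0 CPM, with 0 of them at 5 CPM in any library. Pairs of libraries shared between 0.0988% and 1.54% of the barcodes of the smaller library.

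The receptor chains were measured in every library, Cd79a between 1584 and 2704 CPM and Cd79b between 1292 and 2084 CPM. Cd79a stood at 2054 and 1914 CPM in the Day7 libraries, at 1737 and 1584 CPM at Day14, at 2704 CPM in the control chimaera and at 2419 CPM in the KO one. Cd79b stood at 1606 and 1292 CPM at Day7, at 1597 and 1529 CPM at Day14, at 1886 CPM in the control chimaera and at 2084 CPM in the KO one. Both chains were therefore highest in the 2 chimaera libraries, and for Cd79b the Day7 and Day14 libraries overlapped.

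The receptors that tune the signal varied most. Cr2 stood at 35.8 and 26.4 CPM at Day7, at 111 and 94.5 CPM at Day14, at 60.8 CPM in the control and at 44.5 CPM in the KO chimaera. Cd22 stood at 171 and 165 CPM at Day7, at 459 and 485 CPM at Day14, at 184 CPM in the control and at 175 CPM in the KO chimaera. For both genes the Day14 libraries were apart from all the others, although the chimaera cells were also taken at day 14 with the same gate.

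Of the kinases, Syk was also highest at Day14. It stood at 229 and 181 CPM at Day7, at 416 and 383 CPM at Day14, at 198 CPM in the control and at 179 CPM in the KO chimaera. Lyn stood at 265 and 213 CPM at Day7, at 276 and 266 CPM at Day14, at 182 CPM in the control and at 168 CPM in the KO chimaera, and was lowest in the chimaeras. Btk ranged from 91.6 CPM in the KO chimaera to 119 CPM in the first Day7 library, and its groups overlapped. The adaptor Blnk was the steadiest gene, between 375 CPM in the KO library and 426 CPM in the first Day7 library. The phosphatase gene Ptpn6 stood at 353 and 326 CPM at Day7, at 297 and 293 CPM at Day14, at 384 CPM in the control and at 365 CPM in the KO chimaera, so the Day14 libraries were the lowest.

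**Figure D1:**
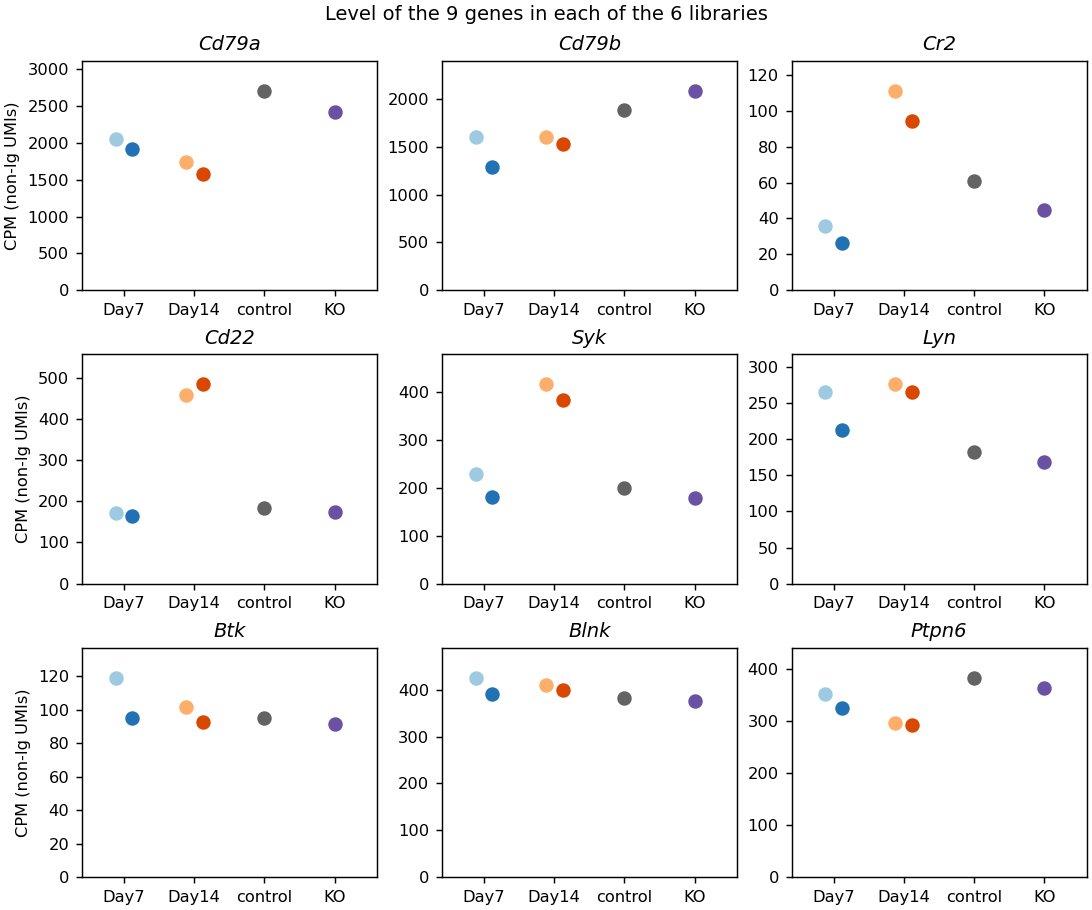
Level of each gene, in CPM of non-immunoglobulin UMIs, in the 6 libraries, 1 point per library and 1 panel per gene, each axis starting at 0. The Day14 points of Cr2, Cd22 and Syk lie above those of all other libraries (for Cd22, 459 and 485 CPM against at most 184 CPM), while the Blnk points lie between 375 and 426 CPM.

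The zones were compared first. Each cell carries the authors' call of light zone (LZ) or dark zone (DZ). How the calls were made is not stated, nor whether any of the 9 genes entered them. UMIs were summed per library and zone, and the 2 sums of a library were compared as a pair across 6 libraries (edgeR quasi-likelihood test, Benjamini-Hochberg adjusted p under 0.05). Of the 9 genes, 7 rose in the LZ and 0 fell. Among all 10862 genes tested, 60.6% were called, 31.3% as higher in the LZ and 29.3% as lower, and their median log2 difference was 0.01, against 0.27 for the 9 genes.

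Both receptor chains were higher in LZ cells of every library. Cd79a stood at 2514 against 1793 CPM (LZ against DZ) and 2139 against 1790.4 CPM at Day7, at 2164 against 1526 CPM and 1919.9 against 1424 CPM at Day14, at 3106 against 2417 CPM in the control and at 2785 against 2223 CPM in the KO chimaera. Its fitted log2 difference was 0.35 (SE 0.03, adjusted p = 4.34e-06). Cd79b rose by 0.26 (SE 0.03, adjusted p = 4.80e-05), and the differences of the single libraries ran from 0.19 to 0.40.

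The co-receptor Cr2 showed the largest LZ difference of the 9, and was higher in LZ cells in 6 of 6 libraries. It stood at 44.7 against 30.8 CPM and 29.3 against 24.8 CPM at Day7, at 152 against 91.0 CPM and 129 against 78.6 CPM at Day14, at 72.2 against 54.7 CPM in the control and at 53.3 against 40.8 CPM in the KO chimaera. The fitted log2 difference was 0.46 (SE 0.06, adjusted p = 1.79e-05). Its restraining counterpart Cd22 rose by 0.42 (SE 0.04, adjusted p = 2.36e-06), with the largest difference in the first Day14 library (596 against 391 CPM) and the smallest in the control (206 against 170.0 CPM). Ptpn6, which acts with CD22, rose by 0.37 (SE 0.04, adjusted p = 2.22e-05), from 304 CPM in DZ to 366 CPM in LZ cells in the second Day7 library and from 249.6 to 387 CPM in the second Day14 library.

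The kinases differed among themselves. Lyn rose by 0.27 (SE 0.03, adjusted p = 1.88e-05) and Syk by 0.14 (SE 0.03, adjusted p = 0.00126), each in 6 of 6 libraries. Btk had a log2 difference of -0.06 (SE 0.03, adjusted p = 0.156) and was higher in LZ cells in 4 libraries and lower in 2. Blnk had one of -0.04 (SE 0.03, adjusted p = 0.247), with 5 libraries higher and 1 lower.

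The zones differ in cell cycle and depth, and these values stand beside the counts above. In the first Day14 library, 2685 of 3524 LZ cells were called G1, against 1106 of 5511 DZ cells. LZ cells had fewer UMIs in every library, with medians from 2547 to 15336 against 3733 to 20954 in DZ cells. With the zones compared among G1 cells alone, 4 of the 9 genes rose, which were Cr2 (0.88, adjusted p = 3.46e-07), Ptpn6 (0.60, adjusted p = 1.39e-08), Cd22 (0.46, adjusted p = 3.26e-06) and Cd79a (0.27, adjusted p = 1.63e-05). Blnk fell by 0.12 on the log2 scale (adjusted p = 0.0321). Cd79b (0.03, adjusted p = 0.532), Lyn (0.11, 0.0676), Syk (-0.13, 0.0513) and Btk (-0.09, 0.117) did not pass the test in G1 cells. Among G1 cells 41.4% of all genes were called. Cells were also split at the median UMI count of their library, a split chosen after seeing the data. At or over it, Cd79b (0.12, adjusted p = 0.0709) and Syk (0.09, adjusted p = 0.0624) did not pass and Btk fell (-0.18). Among the shallower cells Syk did not pass (0.05, adjusted p = 0.452). The share of all genes called in this split is not given here, so these lost calls cannot be set against it.

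Cr2 in G1 cells stood at 50.7 in LZ against 26.1 CPM in DZ cells and 36.4 against 12.9 CPM at Day7, at 164 against 78.8 CPM and 147 against 71.5 CPM at Day14, at 74.5 against 51.7 CPM in the control and at 52.2 against 41.8 CPM in the KO chimaera. On the log2 scale the difference was smallest in the chimaeras (0.53 and 0.32) and largest in the second Day7 library (1.5), whose DZ group held 214 G1 cells. Ptpn6 in G1 cells ran from a log2 difference of 0.40 in both chimaeras to 0.74 in the second Day14 library. In G1 cells Cd22 stood at 220 against 205 CPM in the control, the smallest difference of the 6 libraries (0.10), and at 622 against 404 CPM in the first Day14 library.

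Among S phase cells Ptpn6 (0.34), Cd22 (0.31) and Cr2 (0.30) again rose in the LZ, while Btk (-0.21), Blnk (-0.19) and Cd79b (-0.15) fell, where 38.7% of all genes were called, 18.9% as higher and 19.8% as lower. Cr2 was lower in LZ than in DZ S cells of both Day7 libraries (-0.35 and -0.39) and higher in the other 4 libraries. Among G2M cells 0 of the 9 genes rose and 4 fell, which were Btk (-0.68), Cd79b (-0.56), Cd79a (-0.32) and Lyn (-0.31), where 15.4% of all genes were called as higher and 15.1% as lower. That comparison rests on few LZ cells, between 4 in the first Day7 library and 102 in the second Day14 library. With phase as a term over all cells, chosen after seeing the data, Cr2 (0.45), Ptpn6 (0.31) and Cd22 (0.23) rose, and Btk (-0.26), Cd79b (-0.25), Blnk (-0.18) and Syk (-0.15) fell, where 23.9% of all genes were called as higher and 29.8% as lower. The higher LZ level of Cd22 and Ptpn6 was therefore called within G1 and within S cells, that of Cr2 in both but with the Day7 libraries opposed in S cells, and that of Cd79b, Lyn and Syk in neither.

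**Figure D2:**
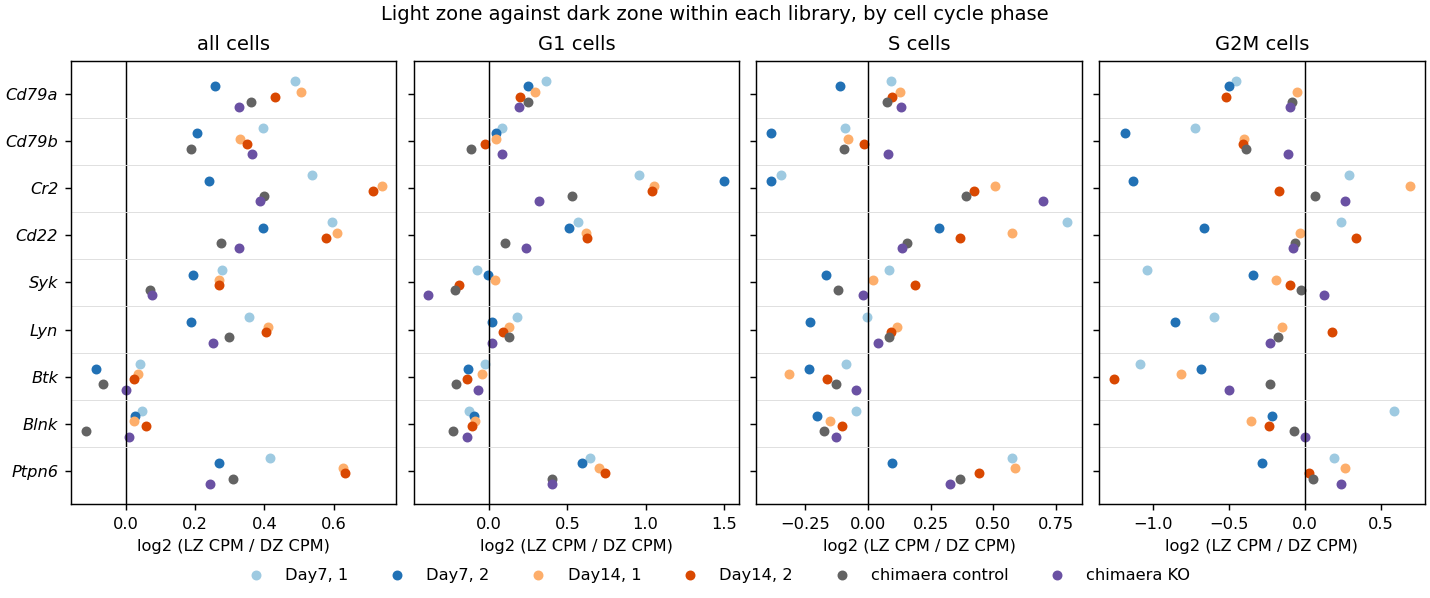
Log2 ratio of LZ to DZ CPM for each gene (rows) in each of the 6 libraries (coloured points), over all cells and within the G1, S and G2M calls (panels with separate log2 axes). In G1 cells the points of Cr2 and Ptpn6 are all above 0, from 0.32 to 1.5 and from 0.40 to 0.74, while those of Btk and Blnk are all below 0.

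Of the other 55 genes of a list of receptor signalling genes, 53 were tested between the zones. In the LZ 28 rose and 6 fell, with a median log2 difference of 0.17. Of all genes tested, 31.3% rose and 29.3% fell. The largest increases were those of Vav3, a guanine nucleotide exchange factor, by 1.90, Ptpn22, a phosphatase that restrains Src-family kinases, by 1.67, and the inhibitory receptor gene Pirb by 1.64. All 3 were low, at most 6.78 CPM in any library. The largest decreases were in the kinase gene Akt1 (-0.52), the inhibitory adaptor gene Dok3 (-0.47) and Nfatc3 (-0.21).

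Across the cell cycle the genes were highest in G1. All 9 genes fell in S phase cells relative to G1 cells, in 6 of 6 libraries each, where 65.1% of 10964 genes were called, 35.0% as lower and 30.1% as higher in S. The receptor chains fell most. Cd79b stood at 2085, 1289 and 1363 CPM in G1, S and G2M cells of the first Day7 library, at 1723, 1079 and 1124 CPM in the second, at 2045, 1388 and 1338 CPM and at 2034, 1311 and 1270.5 CPM in the Day14 libraries, at 2298, 1672 and 1645 CPM in the control and at 2667, 1871 and 1801 CPM in the KO chimaera. In each library the G1 value was thus the highest, and S and G2M were close. The fitted log2 difference from G1 was -0.54 in S (SE 0.03, adjusted p = 8.08e-12) and -0.53 in G2M (SE 0.03, adjusted p = 8.82e-12).

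In S cells Cd79a differed by -0.47, Cr2 by -0.46, Cd22 by -0.38, Lyn by -0.37, Syk by -0.35, Btk by -0.27, Ptpn6 by -0.18 and Blnk by -0.12 on the log2 scale, with adjusted p from 4.46e-11 for Cd79a to 0.00183 for Blnk. In G2M cells 8 genes fell, with 61.8% of all genes called, 32.4% as lower and 29.4% as higher. Lyn differed there by -0.48, Cd79a by -0.47, Syk by -0.38, Cd22 by -0.34, Cr2 by -0.24, Ptpn6 by -0.19 and Blnk by -0.10. Blnk lost its call without the second Day7 library (-0.08, adjusted p = 0.0545) and without the KO library (-0.08, adjusted p = 0.0508). Btk had a difference of -0.07 (adjusted p = 0.0872).

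G1 cells were mostly LZ cells and the shallowest, with median UMIs of 2461 to 13875 against 3786.5 to 22455 in S and G2M cells. Within DZ cells, the order turned for 2 genes. Cr2 was higher in G2M than in G1 cells (0.37, adjusted p = 0.000530), and so was Ptpn6 (0.22, adjusted p = 0.000117), which also rose in S (0.13, adjusted p = 0.0103). Within LZ cells Cr2 (-0.49, adjusted p = 0.0279) and Ptpn6 (-0.37, adjusted p = 0.000795) fell in G2M. Cd79a, Cd79b, Syk, Lyn, Btk and Blnk fell in S and in G2M within both zones. Of all genes, 52.6% were called in S and 45.1% in G2M within DZ cells, and 50.9% and 37.5% within LZ cells. Over the 55 other pathway genes, 54 were tested. Of these, 4 rose and 41 fell in S, where 30.1% of all genes rose and 35.0% fell. In G2M 8 rose and 32 fell, where 29.4% of all genes rose and 32.4% fell. Among the other pathway genes, Pirb (-1.83), Ptpn22 (-1.56) and Vav3 (-1.41) fell most in S, and the store-operated calcium sensor gene Stim1 rose by 0.29. In G2M, Dok3 rose by 0.42 and the BTK-related kinase gene Tec by 0.23.

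Among the deposited clusters, plasma-like cells stood apart. Clusters were drawn by the authors on these cells, so their levels are described and not tested. Cluster names came from fixed markers and carry "-like". In the chimaeras, the plasma-like cluster 7 had a mean over both libraries of 11.4 CPM of Cr2, 45.9 CPM of Cd22, 96.8 CPM of Ptpn6, 86.0 CPM of Lyn and 107 CPM of Syk, the lowest of 8 clusters for each. The light zone-like cluster 0 was the highest for Cr2 (80.7 CPM), Ptpn6 (465 CPM), Lyn (231 CPM), Syk (259 CPM), Cd79b (2733 CPM), Btk (111 CPM) and Blnk (434 CPM). Plasma-like cells kept the receptor chain Cd79a, with 3003 and 2374 CPM in control and KO cells, while Cd79b stood at 1147 and 1152 CPM.

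The plasma-like clusters of the other tables were similar for the tuning receptors. At Day7 the plasma-like cluster 5 of the second library had 4.91 CPM of Cr2, 70.4 CPM of Cd22 and 94.5 CPM of Ptpn6, but 3299 CPM of Cd79a, the highest of 6 clusters. In the first Day7 library it held 49 cells, under the minimum of 50 for a summed level. The plasma-like cluster 9 of Day14 had 30.8 and 9.41 CPM of Cr2, 221 and 173 CPM of Cd22 and 98.4 and 91.0 CPM of Ptpn6 in the 2 libraries, the lowest of 10 clusters on average for each. A second Day14 cluster that took the plasma name, cluster 8 with 198 cells, went the other way for Cd22. Its mean of 721 CPM was the highest of 10 clusters, as was that of Cd79b, 2696 CPM. Like cluster 5 at Day7, it also had the highest mean of Cd79a, 3465 CPM. Light zone markers were also raised in cluster 8, by a median log2 of 0.83.

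Among clusters of at least 50 cells in a library, MYC-high-like clusters, which carry growth genes such as Srm and Gnl3, had the lowest mean Cd79a in all 3 tables. The means were 1451 CPM at Day7, 1155 CPM at Day14 and 1691 CPM in the chimaeras. Their means were also lowest for Blnk in all 3 tables (357, 325 and 326 CPM), for Cd79b at Day7 (855 CPM) and Day14 (951 CPM), and for Btk in the chimaeras (63.3 CPM). Single libraries departed from this. In the second Day14 library, cluster 3 was lower for Cd79a (1121 against 1130 CPM) and cluster 9 for Cd79b (903 against 947 CPM). In the control chimaera, cluster 4 was lower for Blnk (331.3 against 333.5 CPM). Memory precursor-like cells (cluster 6) had the highest mean Cr2 level over the 2 Day14 libraries, with 247 and 199 CPM, although cluster 8 stood at 260.0 CPM in the first of them. In the chimaeras memory precursor-like cells had the highest mean of Cd79a, 3245 CPM, although in the KO library the light zone-like cluster 0 was above them (3052 against 2992 CPM). At Day7, cluster 3 was highest for every gene but Cd79a, with 70.0 CPM of Cr2 and 487 CPM of Ptpn6. It was left unnamed because haemoglobin genes led it, although memory precursor markers were raised there by a median log2 of 2.17.

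Blnk varied least among clusters, the highest mean being 1.31 times the lowest at Day7, 1.54 times at Day14 and 1.33 times in the chimaeras. For Cr2 these ratios were 14.2, 11.1 and 7.08, and for Ptpn6 5.16, 3.95 and 4.81. Cluster 7 of Day14 held 321 cells, all from the second library, with 712 CPM of Cd22 and 40.9 CPM of Cr2.

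**Figure D3:**
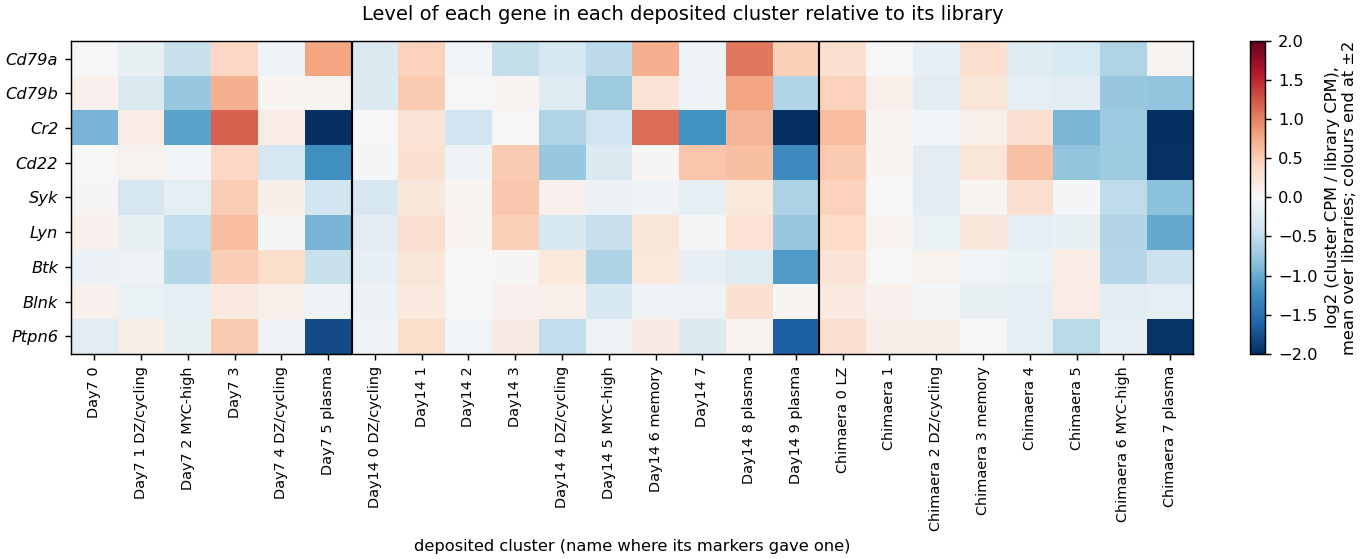
Log2 ratio of each gene's CPM in a deposited cluster to its CPM in the whole library, averaged over libraries with at least 50 cells in the cluster, with genes as rows, clusters as columns and colours ending at plus and minus 2. Plasma-like columns other than cluster 8 of Day14 are blue for Cr2, Cd22 and Ptpn6. No plasma-like column is blue for Cd79a, and the Blnk row is close to white throughout.

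The genes whose levels over clusters were most like those of each member were ranked among 4473 genes by the mean over the 3 tables of Pearson's r, over 11 cluster sums at Day7, 19 at Day14 and 16 in the chimaeras. These sums share libraries and clusterings, so the values are descriptions. Cr2 was closest to Prkcb (0.94), which encodes protein kinase C beta of the same pathway, and Lbh (0.92). Cd22 was closest to Uvrag (0.95) and Ciita (0.93), the regulator of MHC class II genes. Ptpn6 was closest to the transcription factor genes Bcl11a (0.95) and Pax5 (0.94), and Lyn to Myo1c (0.93). Syk was closest to Arhgap25 (0.92) and Myo1c (0.92), Cd79b to Acp5 (0.92) and Sp100 (0.90), Cd79a to Rnase6 (0.89) and Man2b1 (0.89), Btk to Gsn (0.89) and Cap1 (0.87), and Blnk to Eif2ak3 (0.77) and Scarb2 (0.76). Among the 9 genes, Cr2 and Cd22 had mean r of 0.88 with Ptpn6, while Cd79a had -0.10 with Ptpn6 and 0.67 with Cd79b.

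Day14 was then set against Day7. The libraries differ in time, sort gate and table, and in depth, and these cannot be told apart. With 2 libraries per group, 3 of the 9 genes rose and 4 fell (edgeR, adjusted p under 0.05), where 67.9% of 11995 genes were called, 34.9% higher and 33.0% lower at Day14. Cr2 was 31.1 ± 6.67 CPM at Day7 and 103 ± 11.7 CPM at Day14 (SD, n = 2 each), a fitted log2 difference of 1.55 (SE 0.15, adjusted p = 0.000231). Cd22 was 168 ± 4.44 and 472 ± 17.9 CPM (log2 1.30, SE 0.06, adjusted p = 2.64e-05), and Syk 205 ± 34.3 and 399 ± 22.9 CPM (log2 0.77, SE 0.11, adjusted p = 0.00123). The CPM of the libraries did not overlap between the groups for these 3 genes. Nor did it for Cd79a and Ptpn6, which were lower at Day14, or for Lyn, whose fitted difference did not pass. The share of all genes for which this holds was not computed, so it is not read as a result about these genes. The 10 plasma markers summed to 3817 and 3798 CPM at Day7 and to 945 and 914 CPM at Day14, the 5 erythroid markers to 640.2 and 214 CPM and to 151 and 147 CPM, and mitochondrial UMIs made up 2.68% and 2.63%, and 7.41% and 7.68%. Their part in the differences was not tested.

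Cd79a fell by 0.45 on the log2 scale (SE 0.08, adjusted p = 0.00272), Ptpn6 by 0.39 (SE 0.06, adjusted p = 0.00177), Btk by 0.32 (SE 0.11, adjusted p = 0.0397) and Blnk by 0.20 (SE 0.06, adjusted p = 0.0276). The fit rescales library totals (TMM), which CPM does not. In CPM the Day7 and Day14 libraries overlapped for Btk (119 and 94.9 against 102 and 92.9) and for Blnk (426 and 392 against 409 and 401). Mean Blnk was 409 CPM at Day7 and 405 CPM at Day14, so its fitted fall depends on the scaling. Cd79b (-0.08, adjusted p = 0.519) and Lyn (0.00, adjusted p = 0.972) did not pass. Btk lost its call without the first Day14 library (adjusted p = 0.0531) and without the second (0.197), as did Blnk (0.185 and 0.282). Without the second Day7 library, Cd79b (-0.21, adjusted p = 0.00953) and Lyn (-0.14, adjusted p = 0.0372) also fell.

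The increases were no longer called among cells in the UMI range that both days share, an alternative chosen after seeing the data. Day7 cells held 7290 UMIs or more and Day14 cells 9998 or fewer, and the shared range held 143 and 151 cells at Day7 and 979 and 1038 at Day14. Within it Cr2 had a log2 difference of 0.21 (adjusted p = 0.287), Cd22 of 0.20 (adjusted p = 0.134) and Syk of 0.10 (adjusted p = 0.571). Cd79a (-1.01), Ptpn6 (-0.83), Cd79b (-0.82), Lyn (-0.62) and Btk (-0.57) fell, and 45.0% of all genes were called. The range takes the shallow end of Day7, where 79.7% and 68.9% of cells were G1, and the deep end of Day14, where 18.5% and 15.6% were, so its groups differ in phase. They also differ in depth, since the second Day7 library held no cell under 9145 UMIs.

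In every library the CPM of Cd22 and Syk fell as UMIs per cell rose. In the first Day14 library Cd22 stood at 787 CPM in cells of 500 to 1999 UMIs, at 585 CPM at 2000 to 3999, at 399 CPM at 4000 to 7289 and at 303 CPM at 7290 to 9998 UMIs. In the control chimaera the same ranges gave 382, 286, 217 and 183 CPM. The share of G1 cells changed over the same ranges. It was 58.9%, 46.1%, 33.0% and 18.5% in the first Day14 library and 60.5%, 62.7%, 52.2% and 37.0% in the control. Depth and phase were not separated here. In the range from 7290 to 9998 UMIs, the Day7 libraries had 306 and 253 CPM of Cd22, the Day14 libraries 303 and 327 CPM, and the chimaera control and KO libraries 183 and 170.4 CPM. Within this range the Day7 and Day14 libraries overlapped for Cd22, and the chimaeras were below both. G1 cells made up 79.7% and 68.9% of it at Day7, 18.5% and 15.6% at Day14, 37.0% in the control and 31.2% in the KO chimaera.

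**Figure D4:**
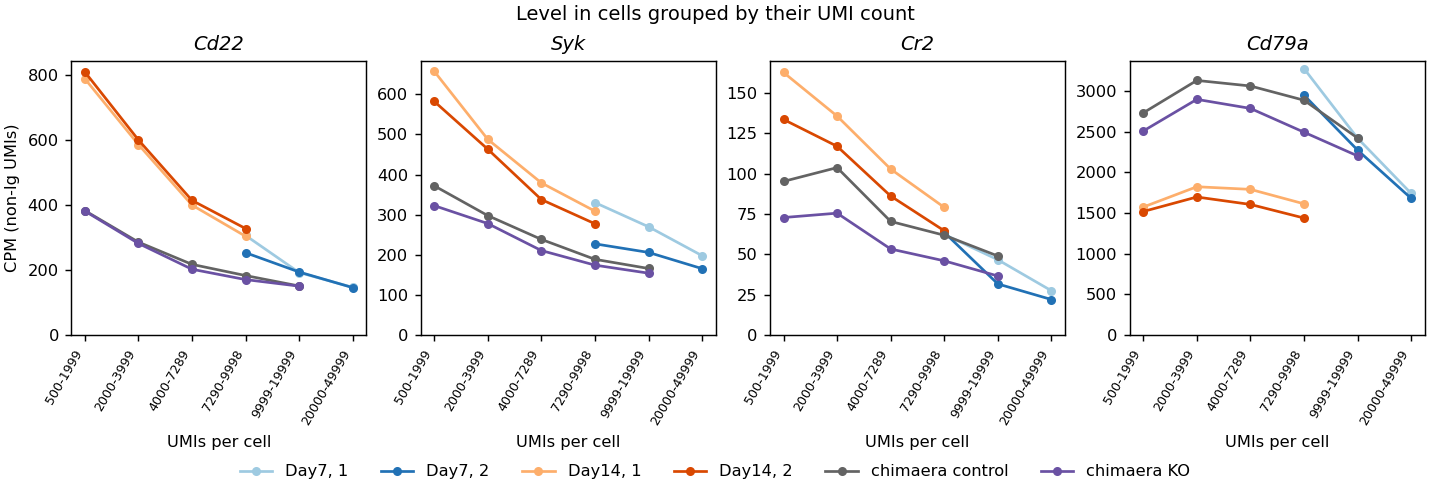
CPM of Cd22, Syk, Cr2 and Cd79a (panels, axes from 0) in cells grouped by UMIs per cell (x axis, ranges), 1 line per library. The Cd22 lines fall from left to right in all libraries, and at 7290 to 9998 UMIs the Day7 and Day14 points lie together between 253 and 327 CPM. The share of G1 cells differs between the ranges and between the libraries.

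Other pathway genes moved in both directions between the days, 32 higher and 8 lower of 54 tested. Of all genes tested, 34.9% were higher and 33.0% lower at Day14. The largest increases were in Vav2 (1.24) and Ptpn22 (1.23). Cd81, a tetraspanin gene of the B cell co-receptor, showed the largest decrease (-1.94), from 298 and 274 CPM at Day7 to 87.7 and 81.7 CPM at Day14. Rac2, a GTPase gene, followed (-1.14), and then Pik3ap1, an adaptor for PI3K (-1.0). In the chimaeras, also at day 14, Cd81 stood at 337 and 346 CPM, near its Day7 level.

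The zone difference itself was compared between the days by an interaction term, for which 2.38% of 11492 genes were called, 1.22% with a larger LZ difference at Day14 and 1.16% with a smaller one. Of the 9 genes, Ptpn6 had a larger LZ difference at Day14, by 0.26 on the log2 scale (SE 0.06, adjusted p = 0.0306), and the other 8 did not pass. The LZ to DZ log2 ratios of Ptpn6 were 0.42 and 0.27 at Day7 and 0.63 and 0.63 at Day14. The call was lost without the first Day14 library (adjusted p = 0.717), without the second (0.650) and with DESeq2 (0.359). Without the first Day7 library, which leaves a single library at Day7, the difference was 0.14 for Cd79b and 0.49 for Cr2. With all libraries Cr2 had a difference of 0.33 (adjusted p = 0.0721). Of the other pathway genes, 3 passed, which were Cd81 (0.39), Prkcb (0.38) and the calcium-regulated transcription factor gene Nfatc1 (0.32), each more LZ-sided at Day14.

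The chimaera pair addresses the effect of Il4ra loss in host stroma on wild-type germinal centre B cells. With 1 library per host type there is no test, and intervals cover counting error only. None of the 9 genes passed the size rule, which asks for 20 CPM, an absolute log2 ratio of 0.5 and an interval without 0. It was met by 1.58% of 5114 genes between KO and control, and by 0.311% of 6114 genes between the 2 Day14 libraries.

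Cr2 came nearest. Control cells held 3690 UMIs of it (60.8 CPM) and KO cells 2620 (44.5 CPM), a log2 ratio of -0.45 (95% exact interval -0.52 to -0.38). The ratio of the second to the first Day14 library was -0.23 (-0.30 to -0.17), so libraries of 1 group also differed. The sign of that ratio depends only on which library is put first, and most clusters of these 2 libraries had the same sign. Cr2 was lower in the KO library in all 8 clusters, which share a single pair of libraries and are not repeats. In the memory precursor-like cluster 3 it stood at 74.2 and 42.1 CPM (log2 -0.82, -1.0 to -0.64), and in the light zone-like cluster 0 at 94.9 and 66.4 CPM (-0.52, -0.68 to -0.35). The intervals of cluster 5 (-0.24, -0.57 to 0.10) and of the plasma-like cluster 7 (-0.50, -1.63 to 0.52) held 0. By zone the ratio was -0.44 in LZ and -0.42 in DZ cells, and by phase it ran from -0.48 in G1 to -0.35 in G2M cells. Memory precursor markers summed to 378 CPM in control and 270.2 CPM in KO cells and plasma markers to 3802 and 2601 CPM, and with clusters given equal shares in both libraries the Cr2 ratio was -0.47.

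The receptor chains went in opposite directions, with a log2 ratio of -0.16 for Cd79a (-0.17 to -0.15) and 0.14 for Cd79b (0.13 to 0.16). Between the Day14 libraries the ratios were -0.13 and -0.06, with signs set by the order of the libraries. Cd79b was higher in the KO library in 7 of 8 clusters, and Cd79a was lower in all 8. These clusters share a single pair of libraries and are not repeats. Between the Day14 libraries, Cd79a was likewise lower in the second library in every cluster that both held. The other ratios of KO to control were -0.15 for Syk, -0.11 for Lyn, -0.07 for Cd22 and Ptpn6, -0.06 for Btk and -0.03 for Blnk. The Day14 pair gave -0.12 for Syk, -0.05 for Lyn, 0.08 for Cd22, -0.02 for Ptpn6, -0.14 for Btk and -0.03 for Blnk.

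**Figure D5:**
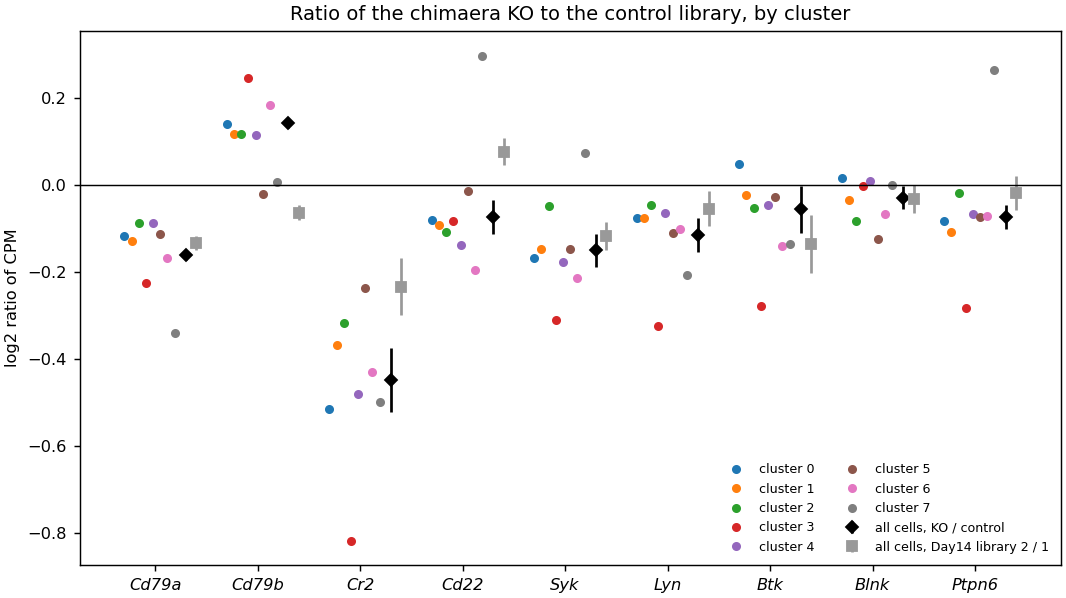
Log2 ratio of KO to control CPM for each gene, by cluster of the chimaera table (coloured points) and over all cells (black diamonds with exact 95% intervals), beside the ratio of the second to the first Day14 library (grey squares). The Cr2 points are all below 0, with -0.45 over all cells and -0.82 in cluster 3, and Cd79b is at 0.14 over all cells.

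Of 44 other pathway genes at 20 CPM or more, 1 passed the size rule. Cd72, which encodes an inhibitory receptor that like CD22 recruits SHP-1, had 131 CPM in control and 84.1 CPM in KO cells (log2 -0.64, -0.70 to -0.59), with a ratio of 0.00 between the Day14 libraries. Ratios were above 0 for 13 of the 44 genes and below 0 for 31, with a median of -0.07, where the median of all 5114 genes was 0.00. Follicular dendritic and stromal markers, which include cells that carry much CR2 protein, summed to 2.93 CPM in control and 1.16 CPM in KO cells.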

How the data were processed

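The authors deposited UMI counts per gene and cell, whole numbers without normalization, in 3 tables (Day7, Day14 and chimaeras), with each cell's library, cluster, zone and phase. Per the submitters' processing notes, Cell Ranger, Seurat and mm10 were used; settings are not given in the sources used here. All deposited cells were kept and no doublet caller was run. The Day7 table lists 0 immunoglobulin symbols, against 392 at Day14 and 265 in the chimaeras, so these were left out of all totals.

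Counts were summed per library and class and tested with edgeR 4.0.16 (R 4.3.3, TMM, filterByExpr, quasi-likelihood) over all genes, with the library as a block for zones and phases. Adjusted p is Benjamini-Hochberg over all genes tested, and SE is that of the fitted log2 difference. DESeq2 1.42.0, other scaling, filters, left-out libraries and cell subsets were alternatives. The scripts were tested on simulated data. Intervals are exact conditional binomial at 95% and cover counting error only. A cluster took a marker class's name with a median log2 of at least 0.5 over the rest of its table and at least 3 raised markers, unless another class led its 10 leading genes. The members and gene lists were chosen with earlier results of these data known. All 9 genes are named throughout, and of the other listed pathway genes at most 3 per direction. Some genes that this rule names are not reported here. The numbers of the Day7 and Day14 libraries were not taken as pairs.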

Additional observations from a re-analysis of the deposited data

Results flagged for a closer look

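The LZ to DZ log2 ratio of Blnk in the chimaera control library, -0.12, was far below those of the other 5 libraries, which lay between 0.01 and 0.06. It was 1 of 27 sets of 6 libraries examined this way (the 9 genes under the zone and the 2 phase differences), and chance sets apart a library in about 1 set of 20.

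The zone difference of Ptpn6 was larger at Day14 than at Day7 by 0.26 on the log2 scale, by a test of the difference itself (edgeR, adjusted p = 0.0306). Its value without single libraries ran from 0.23 to 0.37. The call was lost without the first Day14 library (adjusted p = 0.717), without the second (adjusted p = 0.650) and with DESeq2 (adjusted p = 0.359). Among G1 cells the LZ to DZ log2 ratios were 0.65 and 0.60 at Day7 and 0.70 and 0.74 at Day14, a difference that was not tested.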

How the results depend on the processing

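Between the zones, 7 genes rose and 0 fell. This became 4 and 1 among G1 cells, 3 and 3 among S cells, 0 and 4 among G2M cells and 3 and 4 with phase as a term. Btk fell among cells at or over the median UMI count, for which the share of all genes is not given here. Over all genes 6584 were called, against 3963 among G1, 3753 among S and 2786 among G2M cells. The shares of all genes called higher and lower were 20.8% and 20.5% in G1, 18.9% and 19.8% in S and 15.4% and 15.1% in G2M cells, and 23.9% and 29.8% with phase as a term. The direction turned for Cd79a among G2M cells (-0.32) and with phase as a term (-0.037), for Cd79b among S (-0.15) and G2M cells (-0.56) and with phase as a term (-0.25), for Cd22 among G2M cells (-0.091), for Syk among G1 (-0.13), S (-0.057) and G2M cells (-0.19) and with phase as a term (-0.15), and for Lyn among S (-0.036) and G2M cells (-0.31) and with phase as a term (-0.077). Leaving out single libraries gave 7 genes each time and 6075 to 6382 calls.

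Against G1, 1 gene rose in S among DZ cells (Ptpn6, 0.13), where Cr2 was at 0.086, and with zone as a term Ptpn6 was at 0.0088. In G2M 2 genes rose among DZ cells (Cr2, 0.37, and Ptpn6, 0.22), and with zone as a term Cr2 was at 0.076. Calls over all genes numbered 7137 in S, against 4672 among cells under the median UMI count, and 6775 in G2M, against 3678 among LZ cells. Leaving out single libraries gave 9 lower genes in S and 7 to 8 in G2M.

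Between the days, 3 genes rose and 4 fell, of 8145 genes called. In the shared UMI range 0 rose and 4421 genes were called. The number that fell was 1 among LZ cells, 2 among G1 cells and 2 to 6 without single libraries. The numbers of the Day7 and Day14 libraries were checked as pairs (r = 0.176 over 11995 genes, 2 pairs only), and a replicate block gave 4327 higher and 4074 lower genes, with 3 and 4 of the 9. The interaction of zone and day called 1 of the 9 genes and 273 in all. It called 0 and 28 with DESeq2, 2 with RLE size factors, 2 and 491 with no filter on low counts, and 0 to 6 of the 9 and 26 to 1239 in all without single libraries.

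For KO against control, 0 of the 9 genes passed the size rule under any alternative run. Keeping immunoglobulin genes shared by all tables gave nothing to run, since the Day7 table lists 0. The cause of these changes was not tested. Shallow cells limit the rarer transcripts, above all Cr2 in small classes, such as 11 UMIs in plasma-like KO cells.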
